A study of Mus musculus with 4 samples.

Results

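The genes described here are 36 genes of programmed cell death in the mouse: the BCL2 family, caspases, inhibitors of caspases, and death receptors with their adaptors. They were chosen by symbol, and each of the 36 symbols matched a single row among the 23473 gene rows of a table of RNA-seq read counts. The libraries came from MIN6, an insulinoma line of the mouse that stands in for pancreatic beta cells in culture. Cells with stable TLX overexpression gave 2 libraries (below, TLX), and control MIN6 cells labelled wild type gave 2 more (below, control). TLX is an orphan nuclear receptor encoded by Nr2e1, and the series asks how raising it affects expression in beta cells. All cells were kept in DMEM with 25 mM glucose and 15% serum. The labels give neither the promoter behind the TLX construct nor whether the line is 1 clone or a pool, and they do not say whether a control vector was used or whether the 2 libraries of a group came from separate cultures. P-values therefore measure the spread between these libraries, pooled in part over genes, and that spread may be technical.

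In the intrinsic route to apoptosis, BH3-only proteins sense damage or lost growth signals and bind BCL2 relatives at the mitochondrion. When the guardians BCL2, BCL-XL and MCL1 are overwhelmed, BAX and BAK open the outer membrane, cytochrome c escapes, and APAF1 assembles the apoptosome that switches on caspase-9. In the extrinsic route, ligands of death receptors recruit adaptors and caspase-8, with cFLIP as a brake and RIPK1 and RIPK3 as a branch to necroptosis. In beta cells both routes have been studied as ways in which cytokines and endoplasmic reticulum stress kill the cell.

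The gene rows took 8490145 and 8136185 counts in the TLX libraries and 8435976 and 9788646 in the control libraries. Nr2e1 was counted 338 and 281 times in the TLX libraries, against 8 and 10 times in the control libraries, in the direction the labels give. Most beta cell markers were near 0 in all libraries. Of 18 such markers 12 had 0 counts in every library and 1 averaged at least 5 CPM, and their summed level was 20.9 and 22.1 CPM in TLX, against 20.7 and 18.4 CPM in control. Of 13 mesenchymal and fibroblast markers 8 averaged at least 5 CPM, with sums of 8604 and 8267 CPM in TLX and 7992 and 7584 CPM in control. The markers thus go against the labelled cell type in both groups, whose libraries are called by their labels below. Among markers of other cell types, by the test described below, Sparc (0.87), Col1a2 (0.28) and the duct gene Krt7 (1.76) rose with TLX on the log2 scale. Fn1 (-0.76), Pdgfrb (-0.73), the duct gene Sox9 (-1.37) and the macrophage marker Cd68 (-0.53) fell. A second test, DESeq2, did not call Pdgfrb (adjusted p = 0.079). Krt7 had few counts, 27 and 26 in TLX against 10 and 7 in control. Of the 6 acinar and duct markers 4 had 0 counts in every library. The part of these markers in the results was not tested. CPM here is the usual depth-scaled count, on library sizes adjusted by TMM, which evens out differences in composition between libraries.

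Of the 36 genes 32 had enough counts to be tested. With TLX, 1 rose and 3 fell in edgeR's quasi-likelihood test at an adjusted p under 0.05 over all 11024 genes tested, and 28 did not pass. Bmf rose, and Bbc3, Bcl2l11 and Casp4 fell. The 4 calls are 12.5% of the 32 tested members, against 16.8% of all genes tested (7.79% higher and 9.04% lower), a share close to that of the table as a whole. The median log2 fold change of the tested members was 0.03 (TLX over control, as throughout), against 0.00057 for all genes tested. The libraries of the groups did not overlap for 18 of the 32 (56.2%), against 57.1% of all genes tested, and 9 of the 32 had an unadjusted p under 0.05 (28.1%, against 30.1%). For 24 of the 28 that did not pass, the 95% interval of the change lay within 1.5-fold in either direction. DESeq2 called 3 members, all but Bmf (839 genes, or 8.25%, of all those it assessed). Without control replicate 1 the count was 4 higher and 4 lower, as Bax, Bad and Tnfrsf1a also passed upwards and Cflar downwards. Without control replicate 2 it was 2 higher and 5 lower, as Bcl2 also passed upwards and Bcl2l13 and Bok downwards. In bulk RNA a change in the share of cells that carry a transcript and a change per cell cannot be told apart.

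**Figure D1:**
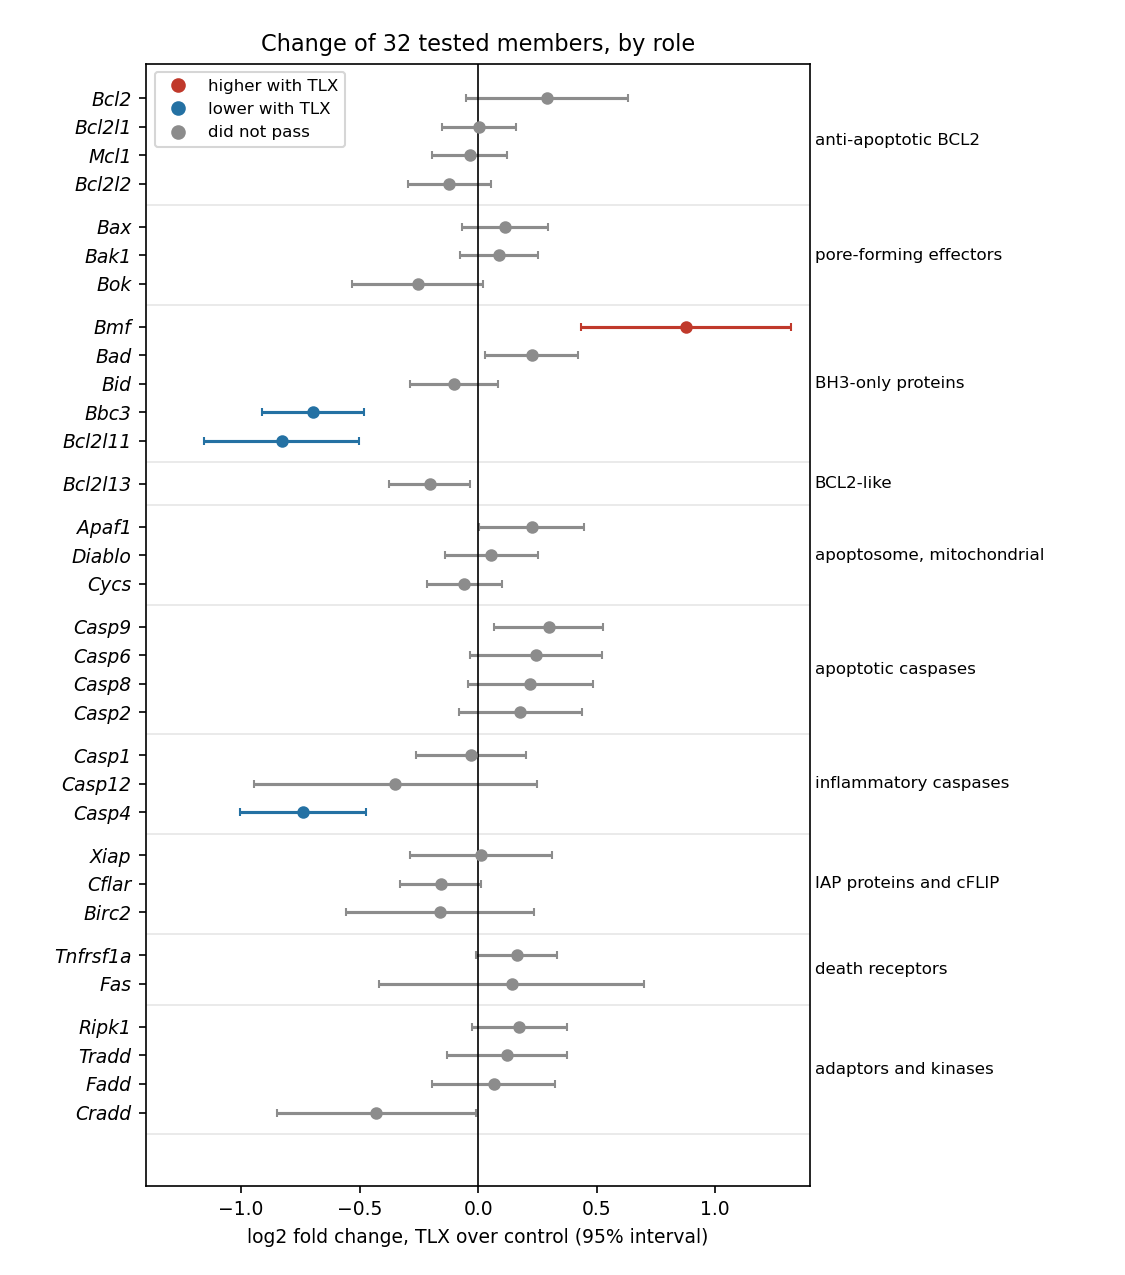
Log2 fold change of TLX over control (x axis) for the 32 tested members, grouped by role (right), with 95% intervals from the edgeR fit over 2 libraries a group. Bmf is the only point called higher, at 0.88, and Bcl2l11, Casp4 and Bbc3 are the only ones called lower, at -0.83, -0.74 and -0.70; grey points did not pass.

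BH3-only genes held 3 of the 4 calls. Of 8 such genes 5 were tested, of which 1 rose, 2 fell and 2 did not pass, against 16.8% called among all genes tested; with 5 genes this is a description of them. Bbc3 encodes PUMA, a BH3-only protein that binds all guardians and is a classic target of p53. Its level was 25.0 and 26.0 CPM in the TLX libraries, against 39.5 and 42.9 CPM in the control libraries. The groups did not overlap, and the TLX pair lay within 1.1 CPM of each other. Bbc3 averaged 25.5 ± 0.7 CPM in TLX and 41.2 ± 2.4 CPM in control (SD, n = 2 each), a log2 fold change of -0.70 (SE 0.10; 95% interval -0.91 to -0.48; edgeR adjusted p = 5.19e-05). Bcl2l11 encodes BIM, which also binds all guardians and responds to growth factor withdrawal and endoplasmic reticulum stress. It stood at 8.44 and 8.71 CPM in the TLX libraries (73 and 69 counts), against 13.9 and 16.4 CPM in the control libraries (116 and 163 counts). Again no TLX library reached either control library. Its log2 fold change was -0.83 (SE 0.16; 95% interval -1.16 to -0.50; edgeR adjusted p = 0.000661). The calls of Bbc3 and Bcl2l11 held in DESeq2 (adjusted p = 0.000478 for Bbc3 and 0.0186 for Bcl2l11), in limma-voom and when any single library was left out.

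Bmf, which encodes a BH3-only protein known for its link to the cytoskeleton and to loss of attachment, was the member that rose. It was counted 64 and 56 times in the TLX libraries, against 30 and 42 times in the control libraries. In CPM that is 7.40 and 7.07 with TLX, against 3.59 and 4.23 in control, with both TLX libraries above both controls. The log2 fold change was 0.88 (SE 0.21; 95% interval 0.44 to 1.32; edgeR adjusted p = 0.00586). This call rests on few counts: in DESeq2 the change was 0.88 and the adjusted p = 0.116, and adjusted p ranged from 0.000734 to 0.116 over the alternatives without a block on the replicate number.

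**Figure D2:**
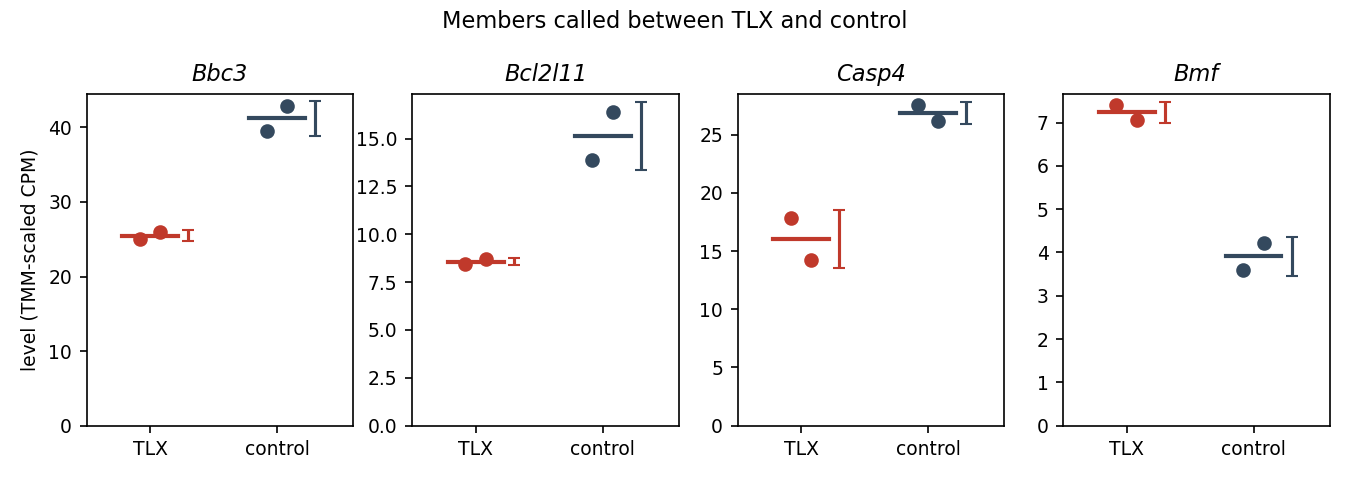
Level in TMM-scaled CPM (y axis, from 0) of the 4 called members in each library; points are libraries, horizontal bars group means and error bars the SD over 2 libraries. In Bbc3, Bcl2l11 and Casp4 both TLX points lie below both control points, and in Bmf both lie above.

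The other BH3-only genes were abundant and did not pass, or were near 0. Bid, which links death receptors to mitochondria once cut by caspase-8, was at 82.1 and 74.7 CPM in TLX and 78.6 and 89.3 CPM in control, and the groups overlapped. Bad, a BH3-only protein held inactive by survival kinases, was at 54.9 and 50.7 CPM in TLX and 47.8 and 42.8 CPM in control. Its groups did not overlap, but its change of 0.23 (95% interval 0.03 to 0.42) did not pass (edgeR adjusted p = 0.109). Bik had 0 and 2 counts in TLX and 1 and 2 in control. Hrk and Pmaip1, which encodes the p53 target NOXA, were listed at 0 in all 4 libraries, and a count of 0 allows a level of up to 0.347 and 0.378 CPM in TLX and 0.359 and 0.302 CPM in control (3 counts, counting error only).

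Because the genes differ in length, their levels were compared as CPM per kb of the length given in the table. On that scale the summed level of BH3-only genes was 97.2 and 91.1 in TLX, against 98.1 and 102.8 in control. Bid and Bad made up 83.6% and 81.7% of this sum in TLX, against 75.9% and 74.6% in control, while Bbc3 and Bcl2l11 made up 14.7% and 16.3% in TLX, against 23.2% and 24.3% in control. Bmf accounted for 1.64% and 1.67% in TLX and 0.790% and 0.888% in control. Within each library the ratio of the Bmf level to the Bcl2l11 level was 0.953 and 0.882 in TLX, against 0.281 and 0.280 in control. These sums and ratios are descriptions of the libraries without a test, and they include genes that were called.

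The promoters of the 4 called members are shown because 3 of these genes moved one way and the fourth the other. Each line gives 250 bases before a RefSeq start (GRCm38.p6), 5′ to 3′ on the strand of the gene, for the window of that gene with a TGTTTAC or, for Bmf, an AAGTCA. Capitals mark letters that match a searched motif. The windows were chosen for TGTTTAC or AAGTCA, and other windows of Bbc3 and Bmf, not printed, hold other searched motifs. The Bbc3 window is chr7:16310011-16310260 (plus strand), that of Bcl2l11 chr2:128125788-128126037 (plus), that of Casp4 chr9:5308599-5308848 (plus) and that of Bmf chr2:118547600-118547849 (minus).
Bbc3: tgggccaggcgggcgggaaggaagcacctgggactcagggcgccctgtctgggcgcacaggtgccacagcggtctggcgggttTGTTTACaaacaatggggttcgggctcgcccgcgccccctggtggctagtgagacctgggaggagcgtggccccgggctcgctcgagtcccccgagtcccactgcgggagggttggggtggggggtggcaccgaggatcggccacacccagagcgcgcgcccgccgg
Bcl2l11: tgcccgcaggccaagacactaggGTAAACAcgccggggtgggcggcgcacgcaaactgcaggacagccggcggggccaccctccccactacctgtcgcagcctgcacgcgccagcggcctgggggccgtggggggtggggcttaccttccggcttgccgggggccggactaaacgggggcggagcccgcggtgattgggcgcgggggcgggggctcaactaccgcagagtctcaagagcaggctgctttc
Casp4: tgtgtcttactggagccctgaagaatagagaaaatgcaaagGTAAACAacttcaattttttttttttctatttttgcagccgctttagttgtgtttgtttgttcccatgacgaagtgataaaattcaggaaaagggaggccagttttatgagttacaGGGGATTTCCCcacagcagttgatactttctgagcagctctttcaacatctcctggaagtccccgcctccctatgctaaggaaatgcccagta
Bmf: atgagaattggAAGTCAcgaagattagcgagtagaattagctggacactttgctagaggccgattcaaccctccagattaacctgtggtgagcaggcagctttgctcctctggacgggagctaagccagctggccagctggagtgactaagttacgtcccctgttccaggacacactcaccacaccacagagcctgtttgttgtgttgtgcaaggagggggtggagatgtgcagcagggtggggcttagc
TGTTTAC, read on either strand, is the core that forkhead factors such as FOXO proteins bind. Among 33 members with a promoter in the RefSeq table it occurs in Bbc3, Bcl2l11 and Casp4 and in no other (9.09%), against 3.54% of 27025 genes. Those are the 3 members that fell, an overlap for 1 of the motifs searched, seen after their values were known and given as a description. The 33 members have 46 windows and the 27025 genes 32851, and more windows give more room for a match. In Bbc3 TGTTTAC lies 167 to 161 bases before the start on the forward strand. On the reverse strand it lies 227 to 221 bases before the start in Bcl2l11 and 209 to 203 in Casp4. Foxo3 was at 20.2 and 22.5 CPM in TLX and 22.2 and 19.9 CPM in control, and Foxo1 at 8.79 and 10.7 CPM in TLX and 10.9 and 8.36 CPM in control. Neither passed (edgeR adjusted p = 0.931 for Foxo3 and 0.941 for Foxo1). The part of forkhead factors in the fall of the 3 genes was not tested.

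AAGTCA, the half-site reported for TLX, occurs in 7 of the 33 (21.2%), against 14.8% of all genes: in Bmf, Bok, Casp12, Cflar, Fadd, Ripk1 and Xiap. Bmf has 3 windows in the table, and 1 of them, printed above, holds these letters. CACGTG, the E-box that MYC binds, occurs in 5 of the 33 (15.2%, against 6.86%), Bbc3 among them, and the AP-1 site TGANTCA occurs in Fas alone (3.03%, against 7.82%). The C/EBP-ATF site TGATGNAAT, which CHOP and ATF4 use, occurs in 0 of the 33, against 0.910% of all genes. The p53 half-site occurs in Bax and Bmf (6.06%, against 8.20%), and the NF-kB site in Bbc3, Bcl2l1 and Casp4 (9.09%, against 4.46%). Both strands were read, the capitals in the Casp4 line mark a TGTTTAC on the reverse strand and an NF-kB site, and a match of letters is no evidence of binding.

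Of the guardians 0 of 4 passed. Bcl2l1, which encodes BCL-XL, was the most abundant of them, at 338 and 340.0 CPM in TLX and 348 and 327 CPM in control. The TLX pair lay inside the range of the control pair. Its change was 0.0050 on the log2 scale with a 95% interval of -0.15 to 0.16, and its sign turned under 3 alternatives. Mcl1, a short-lived guardian, was at 228 and 223 CPM in TLX and 221 and 241 CPM in control (95% interval of the change -0.19 to 0.12). Bcl2l2, which encodes BCL-W, had -0.12 (95% interval -0.30 to 0.05). Bcl2, the founding member, was low at 12.1 and 13.2 CPM in TLX and 8.74 and 11.8 CPM in control, with both TLX libraries higher; its change of 0.29 (95% interval -0.05 to 0.63) did not pass (edgeR adjusted p = 0.247), and it was 0.53 without control replicate 2 (adjusted p = 0.0498). Per kb, Bcl2l1 gave 61.8% and 62.0% of the summed guardian level in TLX and 62.7% and 59.3% in control, and Mcl1 gave 28.4% and 27.7% in TLX and 27.1% and 29.8% in control. The summed guardian level itself was 230.3 and 231 CPM per kb in TLX and 234 and 233 CPM per kb in control.

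The pore-forming effectors did not pass either. Bax was at 164 and 153 CPM in TLX, against 161 and 133 CPM in control, where the 2 libraries lay farther apart than the group means. Its change was 0.11 (95% interval -0.07 to 0.30); it was 0.26 and passed without control replicate 1 (adjusted p = 0.0165), and -0.02 without control replicate 2. Bak1 was at 193 and 172 CPM in TLX and 166 and 176 CPM in control, with overlapping groups. Bok, an effector that acts apart from the guardians, was at 21.5 and 18.4 CPM in TLX and 27.0 and 21.1 CPM in control, and its change of -0.26 (edgeR adjusted p = 0.205) was -0.43 without control replicate 2 (adjusted p = 0.0188). Bcl2l13, a BCL2-like protein of the outer mitochondrial membrane that also takes part in mitophagy, was at 110 and 119 CPM in TLX and 139 and 125 CPM in control. Both TLX libraries lay below both controls, yet the change of -0.20 did not pass (edgeR adjusted p = 0.0954); without control replicate 2 it was -0.28 (adjusted p = 0.00808). Its exons overlap those of Bid on the opposite strand in GENCODE M21. Whether strand was used in counting is not given in the sources used here, so reads of this pair could not be assigned with certainty.

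Per kb, Bax (mean 176 CPM per kb over the 4 libraries) stood first among the 32 tested members and Bcl2l1 (143) second, and no library of Bcl2l1 reached the lowest Bax library. Bak1 (88.3), Tnfrsf1a (74.1), Mcl1 (65.5) and Cycs (56.3) followed. Bak1 and Tnfrsf1a overlapped in their ranges, as did Tnfrsf1a and Mcl1, whereas Cycs lay below Mcl1 in every library. Bid (42.9) and Bad (33.8) came next, each apart from the gene above it. From Diablo (22.7) through Bcl2l2, Casp1, Cflar, Tradd, Bcl2l13, Bbc3, Bok, Casp4 and Casp6 to Ripk1 (9.54) each gene overlapped the one above it in its range over libraries, except Diablo itself. At the low end stood Bcl2l11 (2.36), Birc2, Xiap, Fas, Bcl2 (1.48), Bmf (1.20) and Casp12 (1.11), all with ranges that overlapped a neighbour. So 96.5% of all tested genes lay below Bax and 8.64% below Bmf on this scale.

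**Figure D3:**
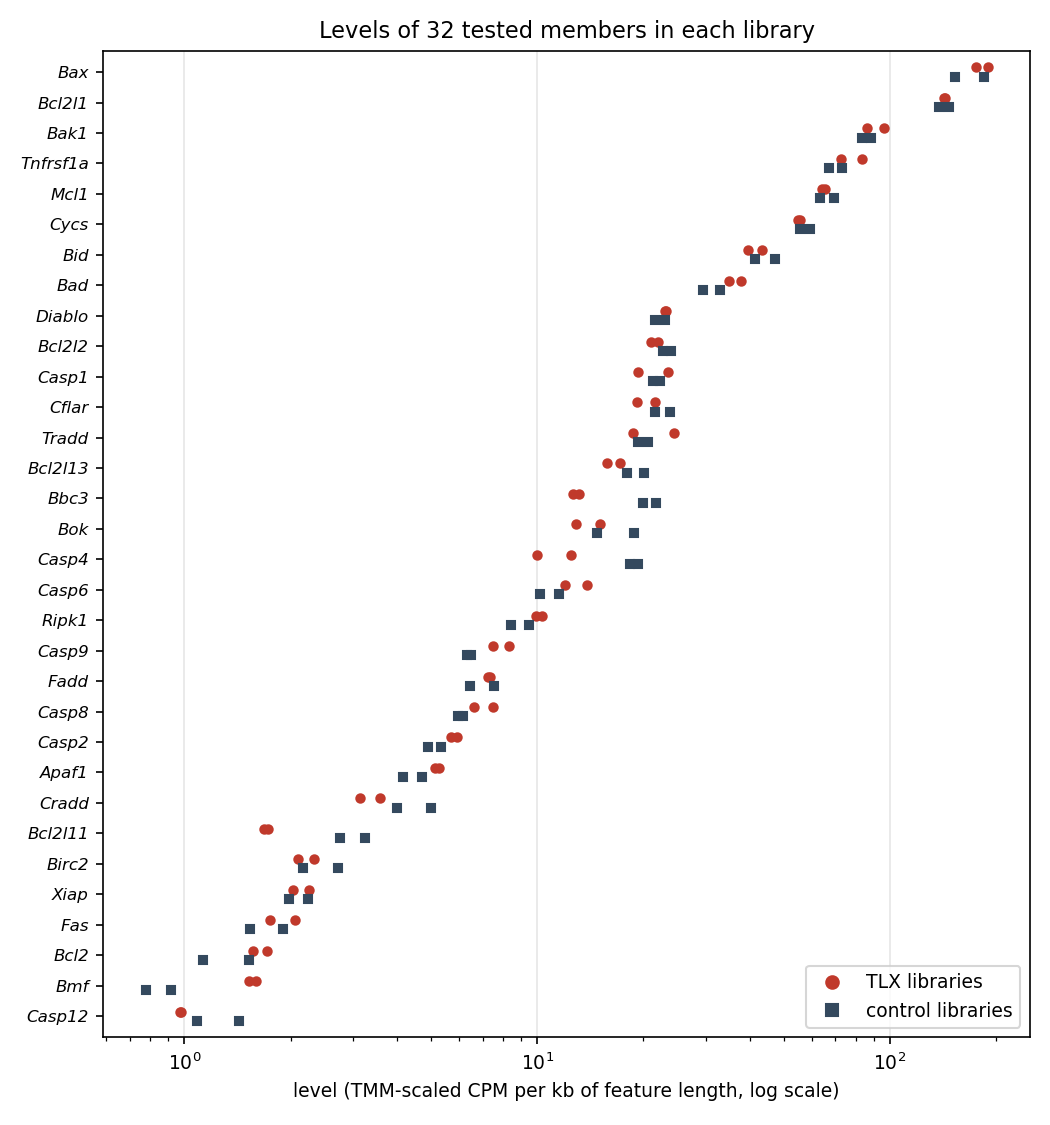
Level in TMM-scaled CPM per kb of the length in the table (x axis, log scale) of the 32 tested members, 1 row a gene; circles are the 2 TLX and squares the 2 control libraries. Bax and Bcl2l1 lie above 100, Bmf and Casp12 near 1, and for most genes the TLX and control points fall close together.

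The proteins downstream of the mitochondrial pore showed small changes that did not pass. Cycs, which encodes cytochrome c, was at 170 and 168 CPM in TLX and 182 and 170 CPM in control, and Diablo, whose product SMAC relieves the block by IAP proteins, at 44.6 and 44.9 CPM in TLX and 44.6 and 41.7 CPM in control. Apaf1 was at 34.6 and 33.7 CPM in TLX and 27.3 and 30.9 CPM in control. Both TLX libraries of Apaf1 lay above both controls, and its change of 0.23 missed the threshold (edgeR adjusted p = 0.158). Exons of 12 of the 36 genes overlap another gene in GENCODE M21, among them Diablo with B3gnt4, Bad with Gpr137, Bak1 with Ggnbp1 and Ripk1 with Serpinb6a, each on the opposite strand. None of Bbc3, Bcl2l11, Bmf and Casp4 is among the 12.

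All 4 apoptotic caspases had a positive change and both TLX libraries above both controls, and 0 of the 4 passed. Groups did not overlap for 57.1% of all genes tested, a share that counts both directions. Casp9, the initiator of the apoptosome, was at 29.3 and 32.4 CPM in TLX and 24.7 and 25.4 CPM in control (log2 fold change 0.30; 95% interval 0.07 to 0.53; edgeR adjusted p = 0.0693). The pancreatic protease genes Cela2a and Ctrc overlap exons of Casp9 on the opposite strand. Casp6, an executioner, had a change of 0.25, Casp8, the initiator at death receptors, of 0.22, and Casp2, an initiator linked to DNA damage, of 0.18 (edgeR adjusted p of 0.229, 0.256 and 0.366). None of Casp2, Casp6 and Casp8 passed in any alternative.

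Casp4 fell, while its neighbours in the caspase cluster on mouse chromosome 9 did not pass. Casp4 encodes a caspase that senses lipopolysaccharide inside the cell and triggers pyroptosis. It was at 17.8 and 14.3 CPM in the TLX libraries, against 27.6 and 26.2 CPM in the control libraries. Both TLX libraries were lower than both controls, with a wider gap between the TLX pair than between the control pair. The log2 fold change was -0.74 (SE 0.13; 95% interval -1.003 to -0.47; edgeR adjusted p = 0.000264; DESeq2 adjusted p = 0.00403), and it lay between -0.91 and -0.59 when single libraries were left out. Casp1, the inflammasome caspase, was at 29.1 and 35.6 CPM in TLX and 32.1 and 33.7 CPM in control, a change of -0.03 (95% interval -0.26 to 0.20). Casp12, a caspase of the rodent endoplasmic reticulum, had 22 and 20 counts in TLX and 31 and 28 in control and did not pass (edgeR adjusted p = 0.453). Both TLX libraries of Casp12 were lower than both controls. Its change of -0.35 had a 95% interval of -0.94 to 0.25, which includes the change of Casp4. Of the reads counted to Casp4 or Casp1, Casp4 took 37.9% (95% exact Clopper-Pearson interval 33.2 to 42.8) and 28.6% (24.2 to 33.3) in TLX, against 46.2% (41.7 to 50.7) and 43.7% (39.7 to 47.8) in control. These intervals cover counting error only, and the difference between the genes was not tested across libraries. The paralogs Casp1, Casp4 and Casp12 resemble each other in sequence, and how reads with several matches were counted is not given in the sources used here. Casp4 is also known from macrophages. Leukocyte markers summed to 103 and 105 CPM in TLX, against 120.0 and 122 CPM in control. Of the 8 leukocyte markers 3 averaged at least 5 CPM, and the pan-leukocyte gene Ptprc had 0 and 1 counts in TLX and 1 and 1 in control. Of the 3 that were tested, the macrophage marker Cd68 fell, at 43.2 and 45.4 CPM in TLX and 59.2 and 68.2 CPM in control (edgeR adjusted p = 0.000391). Cd14 was at 43.1 and 41.9 CPM in TLX and 43.1 and 36.2 CPM in control, Lyz2 at 16.4 and 16.9 CPM in TLX and 17.4 and 17.3 CPM in control, and neither passed (edgeR adjusted p of 0.527 and 0.816). The part of these markers in the Casp4 result was not tested.

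Inhibitors of caspases did not pass. Cflar, which encodes cFLIP, was the most abundant of them, at 149.8 and 168.2 CPM in TLX and 168.4 and 186 CPM in control. Its groups just failed to overlap, with TLX lower. Its change was -0.16 (edgeR adjusted p = 0.199), and -0.23 without control replicate 1 (adjusted p = 0.0284). Xiap, the strongest direct caspase inhibitor, was at 13.3 and 14.8 CPM in TLX and 12.9 and 14.7 CPM in control, and its groups overlapped. Birc2, which encodes the ubiquitin ligase cIAP1 of TNF receptor complexes, was at 6.59 and 7.32 CPM in TLX and 6.83 and 8.56 CPM in control (95% interval of the change -0.56 to 0.24).

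Of the death receptors Tnfrsf1a was abundant and Fas low. Tnfrsf1a, the main receptor for TNF, was at 180.1 and 157.0 CPM in TLX and 157.2 and 144.5 CPM in control. The lower TLX library fell just below the higher control library, and the change of 0.16 did not pass (95% interval -0.01 to 0.33; edgeR adjusted p = 0.194), though it was 0.22 and passed without control replicate 1 (adjusted p = 0.0417). Fas was counted 32 and 25 times in TLX and 23 and 34 times in control, and its interval of -0.42 to 0.70 leaves changes of more than 1.5-fold undetected at this depth. Among adaptors and kinases, Ripk1, a kinase at the fork between survival and death, had a change of 0.17, Tradd, the adaptor of TNF receptor 1, of 0.12 and Fadd, the adaptor that recruits caspase-8, of 0.07. Their edgeR adjusted p were 0.234, 0.553 and 0.781. Cradd, an adaptor of caspase-2, was at 5.90 and 5.17 CPM in TLX and 6.59 and 8.26 CPM in control, with both TLX libraries lower; its change of -0.43 did not pass (edgeR adjusted p = 0.155). Ripk3, the kinase of necroptosis, had 0 and 0 counts in TLX and 1 and 0 in control.

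A further 76 genes of the same pathways were taken from a list of regulators, ligands and substrates, and 55 of them were tested. Of these 7 rose, 5 fell and 43 did not pass, so 21.8% were called, against 16.8% of all genes, and their median log2 fold change was 0.05. The list was chosen with earlier results of these data known, so its share is only a description. Among 8 transcription factors that control BH3-only genes, 1 rose, 2 fell and 5 did not pass (37.5% called, against 16.8% of all genes tested). Ddit3, which encodes CHOP, an inducer of Bcl2l11 and Bbc3 under endoplasmic reticulum stress, was at 155.9 and 174.5 CPM in TLX, against 514 and 481 CPM in control (log2 fold change -1.59; edgeR adjusted p = 4.65e-12). Myc stood at 94.8 and 102 CPM in TLX and 280.4 and 273 CPM in control. E2f1 rose by 0.37, with an adjusted p of 0.0779 without TLX replicate 2. Trp53, which encodes p53, was at 163 and 167 CPM in TLX and 165 and 166 CPM in control (95% interval of the change -0.16 to 0.15).

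Among caspase substrates and genes that act late in apoptosis, 2 of 9 rose and 0 fell (22.2% called, near the 16.8% of all genes tested). Acin1, a caspase substrate of chromatin condensation, was at 240.4 and 246 CPM in TLX and 187 and 180.2 CPM in control (log2 fold change 0.40; edgeR adjusted p = 0.000506). Parp1, a DNA repair enzyme cut by caspases, rose by 0.37 (adjusted p = 0.00336, and 0.0527 without TLX replicate 1). Bag3, a cochaperone that binds BCL2, rose by 0.37 (edgeR adjusted p = 0.00289), but was not called without TLX replicate 2. It was the only call among 13 BCL2 relatives and regulators tested (7.69%, against 16.8% of all genes tested). Birc6, a giant IAP protein, rose by 0.26 (edgeR adjusted p = 0.0393), the only call among 8 other inhibitors tested (12.5%, against 16.8% of all genes tested). Birc6 was not called in DESeq2 (0.143), on all rows (0.0541), or without control replicate 1 or TLX replicate 2.

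Of 7 other death receptor and adaptor genes 0 rose and 2 fell (28.6% called, against 16.8% of all genes tested). Both are adaptors of TNF receptors, and with so few genes the share is a description. Traf1 had 15 and 17 counts in TLX, against 75 and 78 in control (log2 fold change -2.11; edgeR adjusted p = 2.02e-06). Traf2, which carries cIAP1 to TNF receptors, was at 47.2 and 47.2 CPM in TLX, against 67.1 and 56.2 CPM in control (-0.38; adjusted p = 0.00826), but did not pass in DESeq2 (0.0651) or without control replicate 1 (0.0616), TLX replicate 1 (0.054) or TLX replicate 2 (0.0513). Of 10 necroptosis, inflammasome and caspase partner genes 2 rose and 1 fell (30% called, against 16.8% of all genes tested), again a description of few genes. Zbp1, an interferon-induced sensor of nucleic acids that can start necroptosis, was at 62.6 and 57.5 CPM in TLX, against 38.8 and 34.0 CPM in control (0.73; adjusted p = 1.15e-05), and it passed in every alternative. Nod1, a sensor of bacterial cell wall fragments, rose by 0.69 (adjusted p = 0.00309; 0.066 in DESeq2). Nlrp3, an inflammasome sensor, had a change of -0.51 (adjusted p = 0.0126), but was not called in DESeq2 (0.137) or without TLX replicate 1, where its change was -0.33 (0.231).

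**Figure D4:**
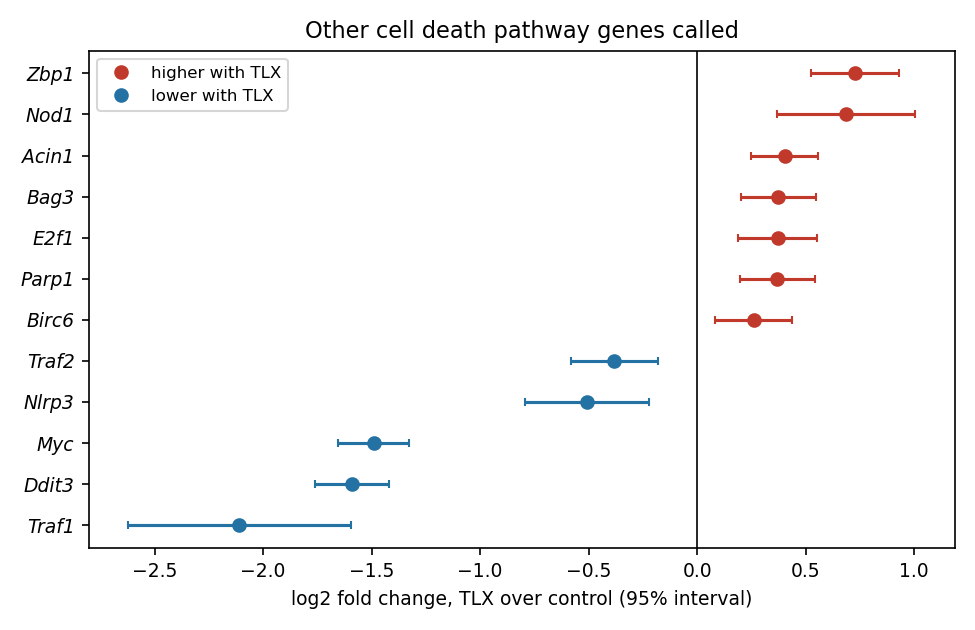
Log2 fold change of TLX over control (x axis) with 95% intervals from the edgeR fit for the 12 called genes among 55 tested cell death genes outside the 36. Zbp1 has the highest value, at 0.73, and Traf1 the lowest, at -2.11.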

How the data were processed

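Total RNA of 4 samples, 2 with TLX overexpression and 2 controls, was sequenced. The submitters' processing notes name TopHat2 2.0.13 and the build mm9; counting program, annotation, strand and reads with several matches are not stated there or in the labels. The authors deposited raw read counts per row with a row length, here used for levels per kb. Of 56826 rows 33353 bear FANTOM clone names and hold 23.3% and 25.1% of counts in TLX and 24.3% and 25.1% in control; neither library sizes nor tests include them. Rn45s, a ribosomal RNA, took 12.2% to 16.7% of gene-row counts.

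Library sizes were scaled by TMM after filterByExpr (minimum count 10). TLX was tested against control with edgeR's quasi-likelihood test, with 2 residual degrees of freedom per gene. The test also pools spread over all genes, so its p-values and intervals rest on more degrees of freedom than these 2. P-values were adjusted by Benjamini-Hochberg for 11024 genes, and adjusted p under 0.05 is a call. The SE is the change divided by the square root of F. On simulated counts with the dispersions of this fit, the test called 17 of 50 genes changed 1.25-fold and 42 of 50 changed 1.5-fold. It called 6 of 10757 unchanged genes. Because the dispersions came from these libraries, the simulation cannot tell whether their spread is technical. A chi-square of counts per gene had a median of 0.923 in the TLX pair and 1.13 in the control pair, against 0.455 for sampling noise, so all libraries were kept apart.

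Of the 76 other pathway symbols 2 were matched by an older symbol. Named are Nr2e1, the 36 members, and other pathway genes that were called at 5 CPM or more on average; any further pathway or marker gene was chosen after its values were seen. Members and lists were chosen with earlier results of these data known. Alternatives were DESeq2's size factors, no normalization factors, no filter, a filter of 10 CPM, DESeq2, limma-voom, a block on the replicate number, removal of Rn45s and Lars2, all rows, and leaving out each library. Tools were edgeR 4.0.16, DESeq2 1.42.0 and limma 3.58.1 in R 4.3.3. Promoters come from RefSeq (GRCm38.p6), matched by symbol for 33 of the 36.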

Additional observations from a re-analysis of the deposited data

How the results depend on the processing

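Of 410 values recomputed for the tested members over 13 alternatives, 12 changed sign, none of them of a called member. Bcl2l1 was -0.0029 with total counts and -0.0070 at 10 CPM or more. Leaving out single libraries gave ranges of -0.041 to 0.048 for Bcl2l1, -0.10 to 0.029 for Mcl1, -0.021 to 0.26 for Bax, -0.18 to 0.11 for Casp1, -0.30 to 0.022 for Birc2, -0.051 to 0.17 for Fadd, -0.092 to 0.30 for Tradd, -0.072 to 0.11 for Xiap, -0.020 to 0.014 for Trp53, -0.17 to 0.22 for Foxo1 and -0.057 to 0.097 for Foxo3. Bbc3, Bcl2l11 and Casp4 passed under all 13 alternatives and Bmf under 11 of 12; at 10 CPM or more Bmf, Traf1, Casp12, Birc2, Fas, Cradd and Foxo1 were not tested, which left 0 members higher. DESeq2 called 0 members higher, 3 other pathway genes lower, and 355 and 484 genes higher and lower in all.

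Members called numbered 1 to 4 higher and 3 to 5 lower when single libraries were left out, and all genes called 388 to 993 higher and 585 to 1060 lower, against 859 and 997. A lone library left in a group is assumed to vary like the other group, and the cause of these moves was not tested. Replicate numbers are shared between the groups, but no label says that they mark a shared culture or day, and deviations of same-numbered libraries correlated at 0.108 over genes, with only 2 pairs. With the replicate block, 4 members were higher and 5 lower, as were 12 and 8 other pathway genes and 1495 and 1487 genes in all; the members added were Bad, Casp9 and Tnfrsf1a upwards and Bcl2l13 and Cflar downwards. With few counts the intervals were wide, from -0.42 to 0.70 for Fas and from -0.94 to 0.25 for Casp12, although Traf1 and Bmf, also low, were called.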

Other observations

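Ligands of the death receptors on the list were near 0 in all libraries, and receptors were in part. Tnf and Lta had 0 counts in every library, Fasl had 1 and 0 counts in TLX and 0 and 0 in control, and Tnfsf10, which encodes TRAIL, had 3 and 0 in TLX and 0 and 0 in control. The receptor genes Tnfrsf10b, a receptor for TRAIL, and Tnfrsf1b, the second TNF receptor, were at 56.2 and 45.5 CPM and at 61.9 and 51.4 CPM in TLX, against 61.3 and 61.2 CPM and 55.6 and 60.0 CPM in control, and neither passed (edgeR adjusted p of 0.0677 and 0.882). Of the other receptors, Tnfrsf21 had 0 counts in every library, Tnfrsf25 had 0 and 0 in TLX and 0 and 1 in control, and Ngfr had 1 and 0 in TLX and 2 and 0 in control. The necroptosis route was present in part: next to Ripk3, which had at most 1 count in a library, its substrate gene Mlkl was at 77.1 and 80.0 CPM in TLX and 70.2 and 78.2 CPM in control (95% interval of the change -0.10 to 0.26).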
